A study of Homo sapiens with 6 samples.

Results

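The late sterol ring enzymes carry out the last part of cholesterol synthesis, from the closing of the first sterol ring system to cholesterol. Here they are 9 genes, LSS, CYP51A1, TM7SF2, MSMO1, NSDHL, HSD17B7, EBP, SC5D and DHCR7, taken by gene symbol from a table of 20289 genes. Each symbol matched 1 row, and all 9 passed the filter on low counts that kept 12920 genes. The samples were SW480 cells, an established human colon adenocarcinoma line, in 3 control cultures, LV-NC (genotype labelled WT, treatment None / LV-NC), and 3 cultures labelled as overexpressing a FLAG-tagged microprotein, MUCP1-FLAG. Both groups were grown in the same L-15 medium with fetal bovine serum, and libraries were made from total RNA with an mRNA kit. The labels call the cultures biological replicates, name no clone, passage, promoter or batch, and so the p-values measure the spread between these libraries. The comparison asks how transcripts change with raised MUCP1, with metabolism named as an interest.

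As background, lanosterol synthase folds squalene epoxide into lanosterol, the first sterol. The enzymes after it strip methyl groups from the ring, move and add double bonds and reduce them, until cholesterol remains. They sit in the membrane of the endoplasmic reticulum. Their genes are known targets of SREBP-2, a transcription factor that is held in that membrane while sterols are plentiful and is released when they fall. Promoters of such genes often hold a sterol regulatory element beside CCAAT boxes, which bind the factor NF-Y, and GC boxes, which bind Sp1.

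All 9 transcripts rose in MUCP1-FLAG cells, from 1.43-fold for LSS to 3.81-fold for MSMO1. Their median log2 fold change was 0.88, against −0.0042 over all 12920 tested genes. An edgeR adjusted p under 0.05 with a higher level was reached by 8.35% of all tested genes, and with a lower level by 7.71%. A log2 fold change of at least that of LSS, the smallest of the 9, was found for 2.32% of all tested genes. For each of the 9 genes the 3 MUCP1-FLAG values lay above the 3 LV-NC values, as they did for 16.6% of all tested genes. The lowest MUCP1-FLAG library stood 1.18-fold (LSS) to 3.19-fold (MSMO1) above the highest LV-NC library. In bulk RNA, more cells of one kind and more RNA per cell cannot be told apart.

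**Figure D1:**
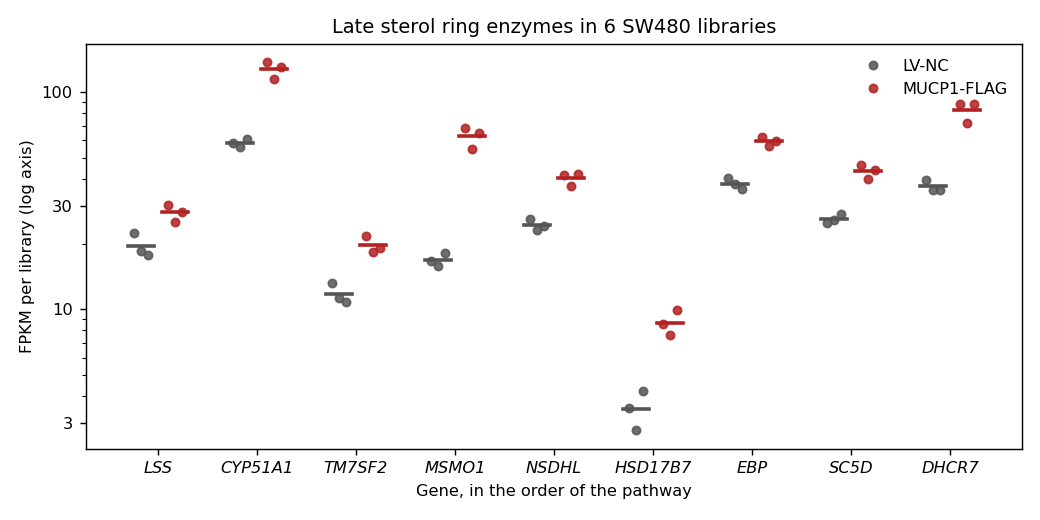
FPKM (counts per length of gene and size of library, log axis) of the 9 genes in each of the 6 libraries, in pathway order, with a bar at each group mean of 3 libraries. In each gene the 3 MUCP1-FLAG points lie above the 3 LV-NC points, and MSMO1 shows the widest gap.

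The promoters are shown because the 9 genes moved together. RefSeq promoter windows (GRCh38.p14, 250 bases before to 50 after a start site) matched all 9 genes, with a second start for DHCR7 and SC5D. The printed stretches lie outside every exon of GENCODE 29 and before the start. Such stretches at the second start of DHCR7 and at SC5D held no CCAAT and are not printed, and EBP and TM7SF2 had none. CYP51A1 is printed as the gene whose window held no match. Capitals mark CCAAT on either strand, written ATTGG where it lies on the opposite one. The stretches are chr4:165327419-165327622 (+ strand) for MSMO1, chrX:152830813-152830966 (+ strand) for NSDHL, chr11:71448436-71448643 (− strand) for DHCR7, chr1:162790452-162790701 (+ strand) for HSD17B7, chr21:46228825-46229024 (− strand) for LSS and chr7:92134531-92134603 (− strand) for CYP51A1, each given 5′ to 3′ along its gene.
MSMO1: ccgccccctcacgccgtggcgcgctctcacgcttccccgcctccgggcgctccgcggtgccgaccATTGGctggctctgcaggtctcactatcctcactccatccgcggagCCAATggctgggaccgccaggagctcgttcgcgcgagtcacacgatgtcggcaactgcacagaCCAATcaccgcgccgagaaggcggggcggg
NSDHL: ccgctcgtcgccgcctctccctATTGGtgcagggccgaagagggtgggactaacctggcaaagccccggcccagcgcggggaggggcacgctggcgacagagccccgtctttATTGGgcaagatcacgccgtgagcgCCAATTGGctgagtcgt
DHCR7: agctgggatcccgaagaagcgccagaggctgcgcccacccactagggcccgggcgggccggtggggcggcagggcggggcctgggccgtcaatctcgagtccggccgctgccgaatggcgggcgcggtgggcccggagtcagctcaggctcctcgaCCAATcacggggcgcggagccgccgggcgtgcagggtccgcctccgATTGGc
HSD17B7: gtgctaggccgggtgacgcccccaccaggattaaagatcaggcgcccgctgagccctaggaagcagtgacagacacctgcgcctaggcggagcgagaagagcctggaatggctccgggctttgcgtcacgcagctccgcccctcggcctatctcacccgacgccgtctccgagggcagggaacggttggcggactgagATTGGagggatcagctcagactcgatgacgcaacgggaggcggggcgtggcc
LSS: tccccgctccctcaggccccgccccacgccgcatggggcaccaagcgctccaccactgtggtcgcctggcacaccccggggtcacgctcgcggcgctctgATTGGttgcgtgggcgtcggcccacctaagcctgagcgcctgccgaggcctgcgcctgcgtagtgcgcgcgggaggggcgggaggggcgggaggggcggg
CYP51A1: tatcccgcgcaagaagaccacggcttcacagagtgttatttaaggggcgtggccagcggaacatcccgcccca

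Of the 9 genes, 8 held CCAAT in a window, and CYP51A1 was the gene without one. Over 10459 tested genes with a window, matched by symbol or synonym, the share was 42.9%. NSDHL held 5 matches, the MSMO1 window 4 and the EBP window 3. Of these the printed stretches hold 4 for NSDHL and 3 for MSMO1, and none is printed for EBP, whose bases before the start all lie in exons. In NSDHL 2 of them overlap, as the run CCAATTGG reads as CCAAT on both strands. At least 2 matches were found in 5 of the 9 genes and in 16.1% of the tested genes. Within the 150 bases before the start, 8 of 9 genes again held CCAAT, against 32.8% of tested genes. GGGCGG, the core of a GC box, was found in 8 of 9, all but NSDHL, and in 78.3% of tested genes. The E-box CACGTG, which reads the same on both strands, was in the windows of LSS and SC5D and in 12.6% of tested genes. A sterol regulatory element core spelled TCACNCCAC was matched in 0 of the 9 genes, searched on both strands, and in 1.42% of tested genes. Other spellings of this element were not searched. These matches describe letters in the windows, and binding was not measured.

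LSS and CYP51A1 open this stretch of the pathway. LSS, lanosterol synthase (ENSG00000160285, chromosome 21, 46188141 to 46228824, − strand, GRCh38), stood at 77.0, 66.2 and 64.7 CPM (counts scaled to a common library size with TMM factors) in LV-NC replicates 1, 2 and 3. In MUCP1-FLAG it stood at 107, 90.7 and 100.2 CPM. The groups did not overlap, but LSS had the narrowest gap of the 9 genes. LSS rose by 0.52 ± 0.07 in log2 units (standard error), with an adjusted p of 4.35e-05 in edgeR. CYP51A1, the cytochrome P450 that removes a methyl group from lanosterol (ENSG00000001630, chromosome 7, 92112151 to 92134803, − strand), had 163, 153 and 168 CPM in LV-NC. The MUCP1-FLAG libraries had 391.6, 327 and 367 CPM, so that even the lowest was about double the highest control, at 1.94-fold. The log2 fold change of CYP51A1 was 1.16 ± 0.06 (edgeR adjusted p 6.25e-11).

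TM7SF2, a reductase of the double bond that CYP51A1 leaves behind, is encoded on chromosome 11 at 65111845 to 65116384 (ENSG00000149809, + strand). It had 16.0, 15.1 and 13.7 CPM in LV-NC, against 29.2, 26.8 and 26.7 CPM in MUCP1-FLAG. The 3 values of each group lay close together and the groups lay apart. Its log2 fold change was 0.88 ± 0.08 (edgeR adjusted p 1.85e-07). On the deposited FPKM scale the change was smaller, at 0.75 in the authors' deposited table. The gene length implied by count and FPKM varied by 6.08% between libraries for TM7SF2 (coefficient of variation), and by 0.18% (EBP) to 2.85% (DHCR7) for the other 8 genes.

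MSMO1, NSDHL and HSD17B7 act in turn to remove the methyl groups at the C4 position. MSMO1, the oxidase of this trio (ENSG00000052802, chromosome 4, 165327623 to 165343160, + strand), had 35.5, 33.0 and 37.4 CPM in LV-NC, against 145, 119 and 139.5 CPM in MUCP1-FLAG. Every MUCP1-FLAG value was more than 3-fold above every control value. MSMO1 rose by 1.93 ± 0.07 in log2 units (adjusted p 1.15e-12, edgeR) and had rank 6 by size among the rises of all tested genes and rank 1 by p. NSDHL, a dehydrogenase and decarboxylase (ENSG00000147383, chromosome X, 152830967 to 152869729, + strand), had 42.9, 38.4 and 39.7 CPM in LV-NC. It had 69.9, 63.2 and 71.0 CPM in MUCP1-FLAG, a rise of 0.75 ± 0.07 in log2 units (adjusted p 4.91e-08, edgeR). NSDHL thus rose 1.69-fold beside 3.81-fold for MSMO1, the enzyme before it.

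HSD17B7, a ketosteroid reductase that closes the C4 cycle (ENSG00000132196, chromosome 1, 162790702 to 162812817, + strand), had the fewest reads of the 9 genes, at 91 to 121 counts in LV-NC and 226 to 296 in MUCP1-FLAG. Its levels were 5.11, 4.22 and 6.33 CPM in LV-NC, against 13.1, 11.2 and 15.2 CPM in MUCP1-FLAG. The spread within each group was wide for this gene, and the groups still did not overlap. The log2 fold change was 1.33 ± 0.15 (edgeR adjusted p 2.28e-06), with a 95% interval of 1.03 to 1.64. Of the 100-base stretches of its longest coding transcript in GENCODE 29, 16.7% occur unchanged in the pseudogene HSD17B7P2. Reads could be shared between the copies, so the level of HSD17B7 is uncertain.

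EBP, SC5D and DHCR7 shift, add and remove double bonds of the second ring. EBP, the isomerase (ENSG00000147155, chromosome X, 48521158 to 48528716, + strand), had 44.9, 42.5 and 39.6 CPM in LV-NC, against 70.0, 63.9 and 67.3 CPM in MUCP1-FLAG. Its log2 fold change of 0.66 ± 0.06 (edgeR adjusted p 2.09e-07) was the lowest of the 9 after that of LSS. SC5D, the desaturase (ENSG00000109929, chromosome 11, 121292453 to 121308694, + strand), had 59.9, 64.5 and 70.1 CPM in LV-NC, against 115, 104 and 113 CPM in MUCP1-FLAG. Its rise was 0.77 ± 0.06 in log2 units, at an edgeR adjusted p of 1.38e-08. DHCR7, which reduces 7-dehydrocholesterol to cholesterol (ENSG00000172893, chromosome 11, 71428193 to 71452868, − strand), had 89.7, 75.2 and 75.2 CPM in LV-NC. With 199.9, 163 and 197 CPM in MUCP1-FLAG its log2 fold change was 1.22 ± 0.09 (edgeR adjusted p 4.82e-06). DHCR7 thus rose 2.33-fold, and the isomerase and desaturase before it 1.58-fold and 1.71-fold.

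The 9 genes differed in the size of the rise. The 95% interval of MSMO1, 1.78 to 2.08 on the log2 scale, lay above the intervals of the other 8. CYP51A1 (1.04 to 1.29), DHCR7 (1.02 to 1.42) and HSD17B7 overlapped one another. LSS, EBP, NSDHL and SC5D had intervals that ended at 0.66, 0.80, 0.89 and 0.90, below the start of those 3 intervals. TM7SF2, at 0.71 to 1.06, overlapped all of these but those of MSMO1 and LSS. Intervals that do not overlap are given as a description, since the libraries are shared between genes. As log2 ratios of FPKM, MSMO1 to LSS gave −0.43, −0.23 and 0.04 for LV-NC replicates 1 to 3, against 1.17, 1.12 and 1.20 for MUCP1-FLAG.

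**Figure D2:**
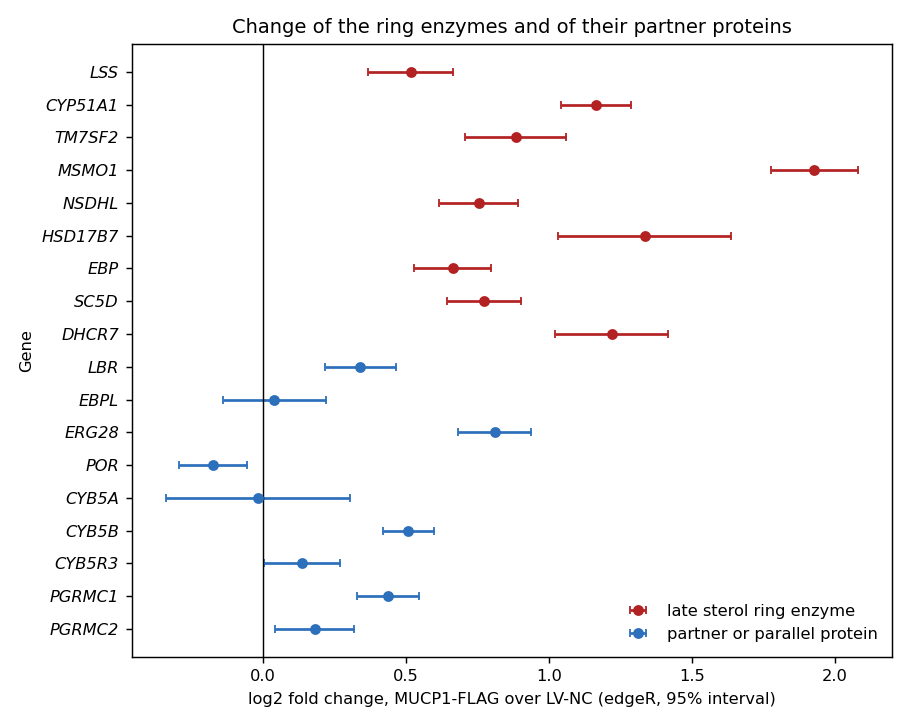
edgeR log2 fold change of MUCP1-FLAG over LV-NC (3 libraries each) with its 95% interval, for the 9 ring enzymes (red, in pathway order) and 9 partner or parallel proteins (blue). The intervals of all 9 enzymes lie above 0, with MSMO1 apart at 1.93, and those of the partner proteins run from POR, below 0, to ERG28, at 0.81.

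Per length of gene, the transcripts spanned a wide range. In LV-NC the order of mean FPKM was CYP51A1 at 58.4, EBP at 37.9, DHCR7 at 36.8, SC5D at 26.1, NSDHL at 24.5, LSS at 19.6, MSMO1 at 16.9, TM7SF2 at 11.8 and HSD17B7 at 3.49. The values of EBP and DHCR7, of SC5D and NSDHL, and of LSS and MSMO1 overlapped, and the other neighbours did not. In MUCP1-FLAG the order was CYP51A1 at 128, DHCR7 at 83.1, MSMO1 at 62.8, EBP at 59.3, SC5D at 43.3, NSDHL at 40.4, LSS at 28.0, TM7SF2 at 19.8 and HSD17B7 at 8.69 FPKM. There the overlapping neighbours were MSMO1 and EBP, and SC5D and NSDHL. MSMO1 thus moved clear of LSS and past NSDHL and SC5D to a place beside EBP, and DHCR7 moved clear of EBP.

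The summed FPKM of the 9 genes was 244, 227 and 235 in LV-NC, against 505, 428 and 486 in MUCP1-FLAG, a ratio of group means of 2.01. The make-up of that sum changed too. MSMO1 took 7.19% ± 0.51 (SD, n = 3) of it in LV-NC and 13.3% ± 0.36 in MUCP1-FLAG. CYP51A1 went from 24.8% ± 1.12 to 27.0% ± 0.22 and DHCR7 from 15.6% ± 0.53 to 17.5% ± 0.60. EBP went from 16.1% ± 0.80 to 12.6% ± 0.51, LSS from 8.30% ± 0.83 to 5.91% ± 0.11, SC5D from 11.1% ± 0.79 to 9.17% ± 0.18, NSDHL from 10.4% ± 0.19 to 8.55% ± 0.23 and TM7SF2 from 4.99% ± 0.41 to 4.19% ± 0.21. These 8 FPKM shares did not overlap between the groups. HSD17B7 overlapped, at 1.48% ± 0.29 and 1.84% ± 0.18. In a two-sided exact permutation test each of the 8 shares had p 0.1, the smallest that 3 libraries against 3 allow, and HSD17B7 had 0.3 (0.113 and 0.3 adjusted over the 9 by Benjamini-Hochberg). In the summed CPM, which does not scale by length, the share of LSS differed by −4.19 percentage points, that of EBP by −1.95 and that of TM7SF2 by −0.32, against −2.39, −3.52 and −0.80 for FPKM. On CPM the shares of DHCR7 and TM7SF2 overlapped between the groups, as did that of HSD17B7. The shares sum to a fixed total, so that a higher share of one gene lowers those of others.

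**Figure D3:**
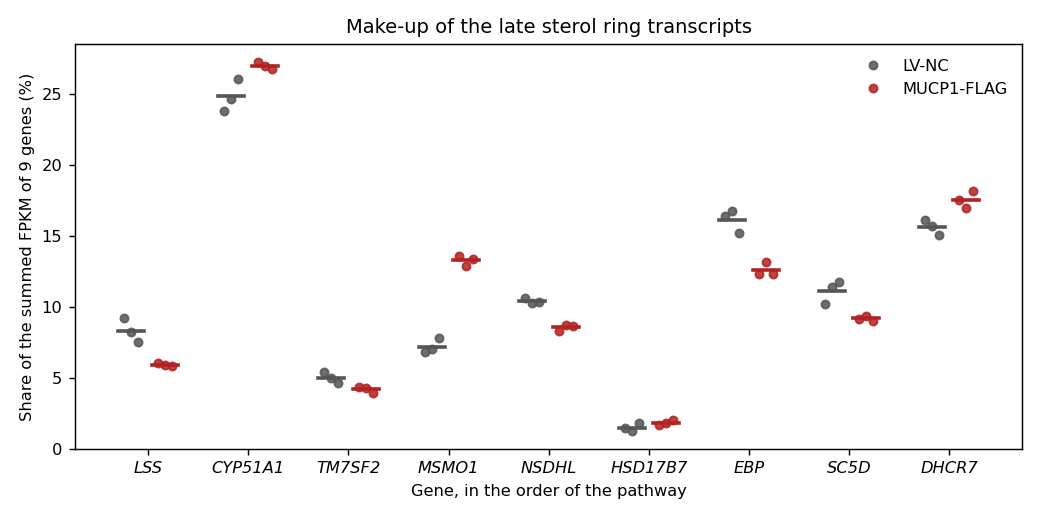
Share of each of the 9 genes in their summed FPKM, in percent, for each of the 6 libraries, with a bar at each group mean. MSMO1 goes from about 7.19% to 13.3%, while EBP, LSS, SC5D, NSDHL and TM7SF2 hold lower shares in MUCP1-FLAG although their levels rose.

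The MUCP1-FLAG libraries varied together in these genes. Replicate 2 had the lowest FPKM of its group in 9 of the 9 genes and the lowest CPM in 8, where 37.3% and 33.2% of all tested genes showed that order. Replicate 1 had the highest CPM in 7 of 9. Without replicate 2 the log2 fold change of MSMO1 was 2.01 and that of DHCR7 1.31. In LV-NC, by CPM, replicate 2 was lowest in 5 of the 9 genes and highest in 0, and replicate 1 was highest in 5. In both groups the summed FPKM of the 9 genes was highest in replicate 1 and lowest in replicate 2.

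Proteins that work beside the ring enzymes moved less evenly. Of 10 listed partner and parallel proteins 9 were tested, of which 4 rose and 1 fell, with a median log2 fold change of 0.18. Over all tested genes 8.35% were called higher and 7.71% lower. ERG28, a scaffold that tethers the C4 demethylating enzymes, rose by 0.81 ± 0.06 (edgeR adjusted p 5.51e-09). LBR, a protein of the nuclear envelope with the same reductase activity as TM7SF2, rose by 0.34 ± 0.06 (edgeR adjusted p 0.000415), beside 0.88 for TM7SF2. LBR had 24.9 ± 1.03 FPKM in LV-NC, above TM7SF2 with 11.8 ± 1.29, and 30.8 ± 0.42 beside 19.8 ± 1.82 in MUCP1-FLAG.

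Electron donors and heme proteins that serve these enzymes gave values on both sides of 0. CYB5B, a cytochrome b5 of the outer mitochondrial membrane, rose by 0.51 ± 0.04 in log2 units (adjusted p 3.47e-08, edgeR), and PGRMC1, a heme protein that binds P450 enzymes, by 0.44 ± 0.05 (edgeR adjusted p 5.4e-06). POR, the reductase that feeds electrons to CYP51A1, was the gene of the list that fell, by 0.17 ± 0.06 (edgeR adjusted p 0.0423). CYB5A, the cytochrome b5 of the endoplasmic reticulum, had −0.02 ± 0.15 (edgeR adjusted p 0.956). CYB5R3, which reduces cytochrome b5, had 0.14 ± 0.06 (0.156) and PGRMC2 0.18 ± 0.07 (0.0679). EBPL, a relative of EBP, had 0.04 ± 0.09 (edgeR adjusted p 0.808) where EBP rose by 0.66. FAXDC2, a relative of MSMO1, did not pass the filter, with mean levels of 0.08 and 0.11 CPM.

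Of 10 genes before the ring, from acetyl-CoA units to squalene epoxide, 9 rose, at a median of 1.48 in log2 units beside 0.88 for the ring enzymes. ACAT2, a thiolase, was higher by 1.72 ± 0.07, SQLE, squalene epoxidase, by 1.44 ± 0.06, FDPS, farnesyl diphosphate synthase, by 0.997 ± 0.05 and IDI1, an isomerase, by 1.60 ± 0.08. PMVK, a kinase of the mevalonate branch, had 0.02 ± 0.12 (edgeR adjusted p 0.938). No test of the difference between the lists was made. The shares of all tested genes called higher and lower, 8.35% and 7.71%, stand beside the counts of this list and the next. Among 7 regulators of SREBP, INSIG1 (2.41 ± 0.11) and SREBF2 (0.79 ± 0.05) rose, SREBF1 fell by 0.51 ± 0.07, and 4 were not called. INSIG1 holds the SREBP proteins in the endoplasmic reticulum, and SREBF2 encodes SREBP-2.

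Of 10 listed genes for sterol esters, oxysterols and conjugates, which take sterols out of the pathway, 5 were tested. Of these 1 was called, and it was higher, beside 8.35% of all tested genes called higher. The list had a median log2 fold change of −0.10. SOAT1, which esterifies cholesterol, rose by 0.25 ± 0.07 (edgeR adjusted p 0.0145). SULT2B1, a sterol sulfotransferase, had −0.73 ± 0.31 (0.122), GBA2 −0.10 ± 0.06 (0.279) and HSD3B7 −0.22 ± 0.18 (0.456).

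**Figure D4:**
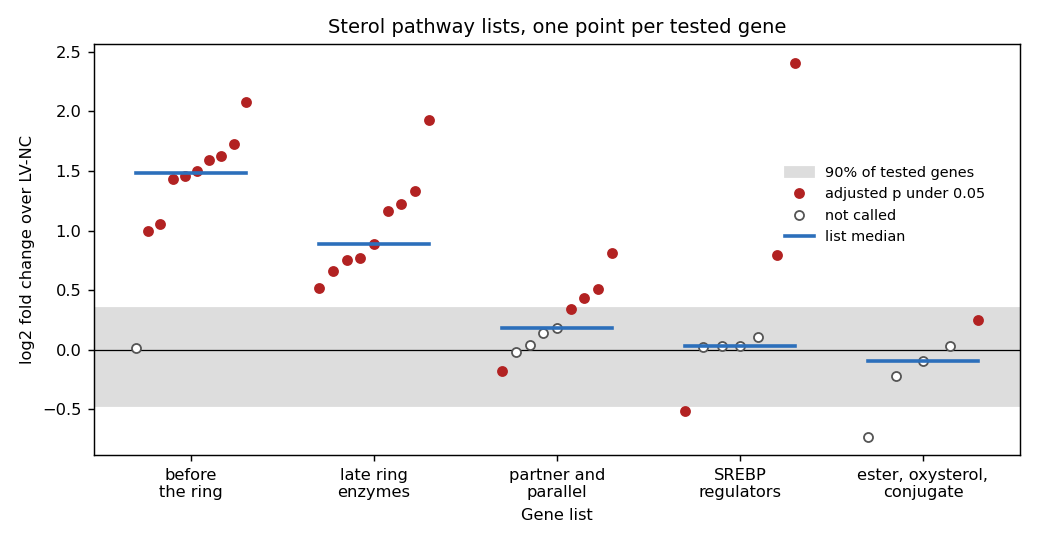
edgeR log2 fold change of each tested gene in 5 sterol lists (points, filled where the adjusted p is under 0.05), with the median of each list (blue line) and the 5th to 95th percentile of all tested genes (grey band, −0.47 to 0.35). The 9 late ring enzymes all lie above the band, with a median of 0.88.

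The genes with profiles most like the ring enzymes were sought among 9414 other genes with a mean of at least 10 CPM. Likeness was the root-mean-square difference of the centred log2 CPM from the median profile of the 9 genes over the 6 libraries. The nearest 8 were KRT5 (0.05), ERG28 (0.05), MMAB (0.06), DBI (0.06), TMEM97 (0.06), CCDC3 (0.07), FDPS (0.08) and SREBF2 (0.08). KRT5, a basal keratin, had a log2 fold change of 0.89 ± 0.04, and DBI, which binds acyl-CoA esters, of 0.90 ± 0.05. MMAB, an enzyme of cobalamin metabolism, had 0.85 ± 0.07 and TMEM97, also known as the sigma-2 receptor, 0.80 ± 0.06. Of the 9 genes themselves TM7SF2 was nearest to the median profile (0.07) and MSMO1 farthest (0.52).

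Genes next to the 9 on the chromosome were compared in the same fit. Of 18 nearest tested neighbours, 1 on each side, ZNHIT2 alone was called, at −0.43 ± 0.11 in log2 units (adjusted p 0.00676, edgeR). Of all tested genes, 8.35% were called higher and 7.71% lower. ZNHIT2 ends 19 bases from TM7SF2 on the opposite strand, and TM7SF2 rose. VPS51, which overlaps TM7SF2 by 16 bases, had 0.01 ± 0.07 (0.935). CETN2, 190 bases from NSDHL, had 0.16 ± 0.06 (0.0894), NADSYN1, 241 bases from DHCR7, −0.10 ± 0.07 (0.367) and PORCN, 344 bases from EBP, −0.22 ± 0.08 (0.0631). Gene model ENSG00000285953 overlaps CYP51A1 and had −0.29 ± 0.38 (edgeR adjusted p 0.685). A further model, ENSG00000285772, holds 88.3% of the 100-base stretches of CYP51A1 and is listed at 0 counts in all 6 libraries. The pseudogenes CYP51A1P2 and CYP51A1P1 hold 3.38% and 2.64% of these stretches. Reads could be shared here too, so the level of CYP51A1 is also uncertain. Antisense genes overlap LSS, CYP51A1 and DHCR7, and with no strand setting given their reads cannot be told apart from those of the enzymes.

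All 9 genes kept their direction and an adjusted p under 0.05 in the 14 other settings tried, with 6 that leave out 1 library each. The largest adjusted p was 0.0131, for LSS with limma on log2(FPKM + 1). The log2 fold change of HSD17B7 moved most between left-out libraries, from 1.20 to 1.496. Without LV-NC replicate 3 the edgeR adjusted p of DHCR7 was 0.0128, against 4.82e-06 with all 6 libraries. In the authors' deposited table the 9 genes had log2 fold changes of 0.51 (LSS) to 1.89 (MSMO1) and adjusted p-values of 4.59e-09 or less.

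**Figure D5:**
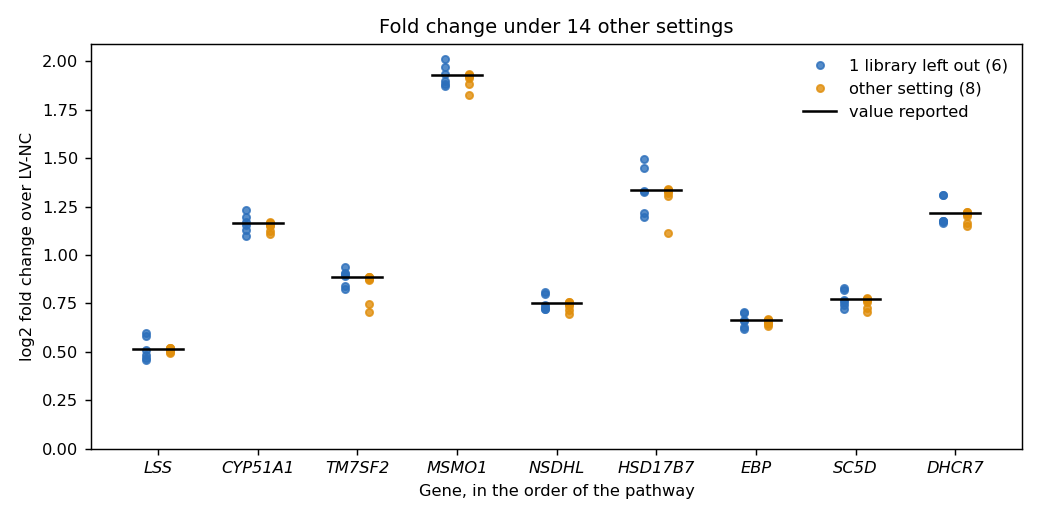
log2 fold change of each of the 9 genes as reported (black line), with 1 library left out in turn (blue points, 6 per gene) and under 8 other settings of scaling, filter, tool, unit or block (orange points). All points lie above 0, and MSMO1 stays above the other 8 genes, at 1.83 or more.

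Across the series, total counts ran from 17333329 to 23282604 per library. MUCP1 does not appear as a symbol in the table, and its labelled overexpression was not checked here. Of 8 colon carcinoma markers, KRT8, KRT18, KRT19, EPCAM, CDH1, VIL1 and CDX2 were tested and CEACAM5 was at or near 0. Their summed level was 6393 to 7070 CPM in LV-NC and 6875 to 7054 in MUCP1-FLAG, with CDH1 (−1.06 ± 0.08), EPCAM and VIL1 lower and KRT19 higher. Summed markers of fibroblasts (5 genes), blood cells (5), endothelium (3) and hepatocytes (3) were at most 4.17 CPM in any library, and COL1A2, COL3A1, DCN, PTPRC, PECAM1 and CDH5 were listed at 0 counts throughout. The part of these marker changes in the results was not tested.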

How the data were processed

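The authors deposited 1 table for 6 libraries, with raw whole-number counts and FPKM per gene, and a comparison with log2 fold changes, p-values and adjusted p-values. Per the submitters' processing notes, the build was GRCh38 and the tools were DESeq2, featureCounts, fastp and HISAT2. Versions, strand setting and the test behind the deposited p-values are not given in the sources used here. Testing of counts used edgeR 4.0.16 (R 4.3.3, quasi-likelihood F test, robust, TMM, filterByExpr with minimum count 10), with Benjamini-Hochberg adjustment over 12920 genes. Standard errors came from fold change and F, and 95% intervals from them. Library totals were 17333329 to 23282604 counts. The fit was tested on simulated counts of 12920 genes, of which 200 were changed. It recovered 77.9% of the genes changed 1.5-fold (53 of 68), 97% at 2-fold (64 of 66) and 93.9% at 4-fold (62 of 66). It also called 17 unchanged genes, a larger part of all its calls than the adjusted p threshold of 0.05 aims for. Within groups, counts of library pairs differed by more than sampling noise (chi-square 2.56 to 8.22 per degree of freedom). DESeq2 1.42.0 and limma 3.58.1 (log2(FPKM + 1), log2(FPKM + 0.1)) served as alternatives. The text names all 9 genes, any partner protein, up to 4 genes per other list by smallest p and those going the other way, the 8 nearest profiles and neighbours called or overlapping; other neighbours were named after their values were seen. The members and lists were chosen with earlier results of these data known. Positions are from GENCODE 29. The planned comparison of protein sequences was not run. The planned partner list held 1 further gene, which is not reported here and not counted in the list.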

Additional observations from a re-analysis of the deposited data

How the results depend on the processing

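All 9 genes were called higher under each of the 14 alternatives. Their median log2 fold change was 0.88 as reported, 0.71 with limma on log2(FPKM + 1) and 0.75 on log2(FPKM + 0.1). The calls among all genes were 1079 higher and 996 lower as reported, 517 and 553 with limma on log2(FPKM + 1), and 510 and 543 on log2(FPKM + 0.1). Leaving out 1 library gave 639 to 1323 higher and 624 to 1213 lower. The low ends were without MUCP1-FLAG replicate 3, and 671 were higher without LV-NC replicate 2. The cause was not tested. The labels do not say whether replicate numbers pair the cultures. Deviations of same-numbered libraries correlated at 0.04, 0.05 and 0.002 across genes, and those of differently numbered libraries at −0.046 to 0.008. Correlations this weak cannot decide whether the cultures were paired. With the replicate number as a block 9 of the 9 genes were higher, and 1005 and 954 of all genes were higher and lower. On summed CPM in place of FPKM the ratio of the 9 genes was 2.08, and each share difference kept its direction. The shares of DHCR7 and TM7SF2 lay apart between the groups on FPKM but overlapped on CPM. The share differences moved from −2.39 to −4.19 percentage points for LSS, from −3.52 to −1.95 for EBP, from −1.85 to −1.47 for NSDHL and from −0.80 to −0.32 for TM7SF2, so that the largest fall was that of EBP on FPKM and of LSS on CPM. Depth limits HSD17B7 most, at 91 to 121 counts per control library.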
